A study of Mus musculus with 47 samples.

Results

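Srp54a, Srp54b and Srp54c are 3 near-identical mouse genes for SRP54, the subunit of the signal recognition particle that binds signal sequences and GTP, and Tmem267 encodes a predicted membrane protein of little known function. These 4 genes were taken by their Ensembl identifiers, 4 of 33139 rows in the brainstem count table and 4 of 31751 in the hippocampus table, and were chosen by their measured levels, which had been seen to differ between single libraries in the same way in both regions. All 4 passed the filter on low counts and were among the 13340 genes tested in brainstem and 13272 tested in hippocampus. The values below that show this shared variation are therefore a description, and no test of it is given.

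RNA was sequenced from brainstem and hippocampus of male C57BL/6 mice of 2 genotypes on 2 diets, giving 4 groups in each region. TG mice carried human A30P mutant alpha-synuclein under the Thy1 promoter, which drives the transgene in neurons of the central nervous system, and were kept as a homozygous colony. WT mice came from the same outcross with C57BL/6 and were kept as a parallel colony, so that genotype and colony cannot be told apart. A standard diet (SD) or a high-fat diet (HFD) was given from about weaning until tissue was taken at about a year of age, without any other treatment. There were 5 brainstem libraries in WT_SD and 6 in every other group of either region, 47 libraries in all. Total counts were 10020784 to 15078812 in brainstem and 11945971 to 17328447 in hippocampus.

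The row for the human transgene held 6 to 50 reads in WT brainstem and 10 to 41 in WT hippocampus, against 36959 to 62782 and 53752 to 72863 in TG. Markers of both tissues matched the labels, with Slc6a5, the glycine transporter of inhibitory hindbrain neurons, at a median of 395 CPM (read counts set to a common library size with TMM factors) in brainstem and 0 in hippocampus, and Nrgn, the calmodulin-binding neurogranin of forebrain neurons, at 5.66 and 680 CPM. Hoxa5 and Hoxb5, position genes of the hindbrain, were not listed in the hippocampus table. Levels below are CPM on this scale unless counts are named, and they are not divided by gene length.

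The signal recognition particle is an RNA-protein complex that meets ribosomes in the cytosol. SRP54 binds the hydrophobic signal sequence as it emerges from the ribosome, elongation slows, and the complex docks at the SRP receptor on the endoplasmic reticulum, where GTP is hydrolysed and the chain passes into the Sec61 channel. Neurons depend on this route for receptors, ion channels and secreted peptides.

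The coding sequences of the 3 copies are so alike that reads can seldom be assigned to one of them, which is why parts of them are shown here. All 3 are 1515 bases long in the GENCODE annotation of GRCm38. Srp54a and Srp54b differed at 0 bases and Srp54c differed from both at 6 bases, an identity of 99.6%. With the base of Srp54a first and positions counted from 1 at the first coding base, the substitutions in Srp54c were T501C, T945C, G946A, T965G, A1197T and G1249A. The window of 75 bases with the most differences, coding bases 891 to 965, is printed with the 3 differing bases in capitals. The sequence of the read length from the start codon, coding bases 1 to 75, has no capitals since it is the same in all 3 copies.
Srp54a: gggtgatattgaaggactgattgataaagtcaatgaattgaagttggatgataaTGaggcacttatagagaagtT
Srp54b: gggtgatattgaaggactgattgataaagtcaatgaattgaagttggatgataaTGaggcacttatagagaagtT
Srp54c: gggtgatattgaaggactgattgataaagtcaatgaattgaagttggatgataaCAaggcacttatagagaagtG
All copies, from the start codon: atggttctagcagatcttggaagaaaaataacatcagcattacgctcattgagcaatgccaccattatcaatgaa

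Reads were 75 bases long, and 1144 of the 1441 windows of that length in the coding sequence (79.4%) were the same in all 3 copies. Over the longest annotated transcript of each gene, 73.4% of such windows of Srp54a, 99.1% of Srp54b and 91.7% of Srp54c also occurred in another gene, in each case the other copies. For Tmem267 this share was 2.78%, with windows found in 3110070M22Rik and Gm48265. How reads that match several genes were counted is not given in the sources used here. Srp54b averaged 2815 reads in brainstem, beside 2918 for Srp54a, although nearly all of its windows were shared. Reads common to the copies were thus not all left out. Whether they were counted in full at each copy or divided among the copies was not tested. The values of single Srp54 copies are therefore uncertain, and the 3 copies are not independent measurements.

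The balance of the counts of the copies was nearly the same in every library. Reads common to the copies can draw these shares and ratios together, so they need not show the balance of the RNA. Over the 47 libraries, Srp54a took 34.2% to 35.3% of the summed counts of the copies, Srp54b 33.4% to 34.1% and Srp54c 30.6% to 32.2%. The ratio of the Srp54b to the Srp54a count was 0.968 ± 0.00636 (SD, n = 47). That of Srp54c to Srp54a was 0.911 ± 0.0151 and ranged from 0.868 to 0.938. The lowest ratio in either region belonged to the library TG_HFD 3, at 0.868 in brainstem and 0.898 in hippocampus. TG_HFD 4 had 0.881 and 0.899, and in hippocampus WT_HFD 6 had 0.904. Brainstem TG_HFD 1 had 0.879 without a high Srp54 level, at 671 CPM summed over the copies. Likewise hippocampus TG_SD 5 had 0.901, lower than WT_HFD 6, at 580 CPM.

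**Figure D1:**
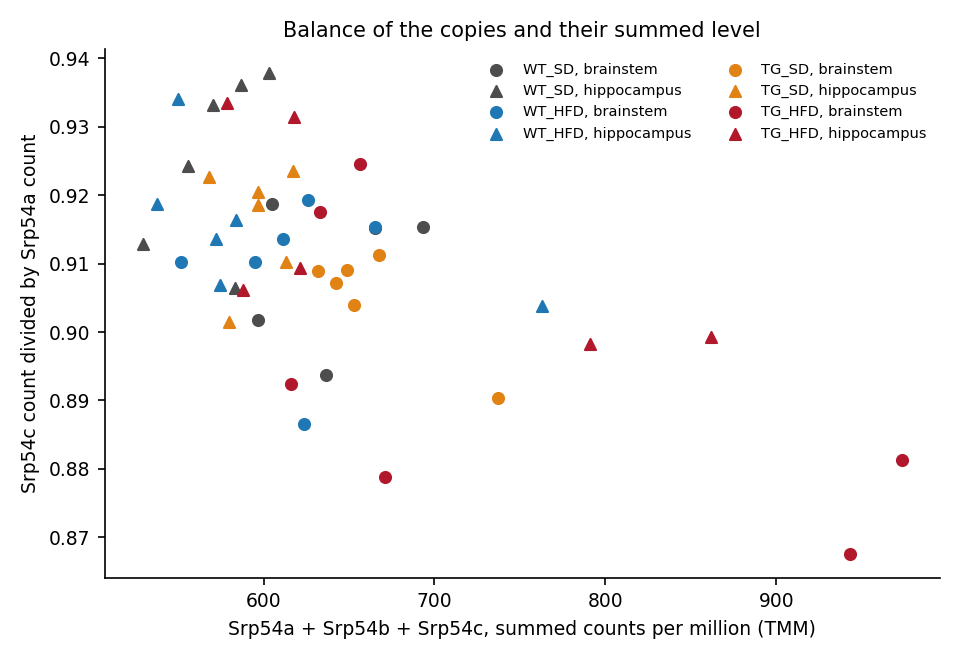
Count of Srp54c divided by that of Srp54a (vertical axis, which does not start at 0) against the summed CPM of the 3 copies (horizontal axis), with 1 point per library, colours for groups, circles for brainstem and triangles for hippocampus. The brainstem libraries with the highest sums, TG_HFD 3 and 4, have ratios of 0.868 and 0.881.

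Summed over the copies, Srp54 was at a similar level in most libraries and stood well above it in a few. A read counted at several copies enters this sum more than once, so the sum can exceed the true level. It is used here to compare libraries. In brainstem, WT_SD libraries had 597, 605, 637, 665 and 693 CPM. The 6 WT_HFD libraries lay between 552 and 665 CPM with a median of 618, and the 6 TG_SD libraries between 632 and 737 CPM with a median of 651. In TG_HFD, 4 libraries had 616, 633, 657 and 671 CPM, and TG_HFD 3 and TG_HFD 4 had 943 and 973 CPM. These last libraries were above every other brainstem library, while the rest of TG_HFD overlapped with all other groups.

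In hippocampus, WT_SD ranged from 529 to 603 CPM with a median of 577, and TG_SD from 568 to 617 CPM with a median of 597. Of the TG_HFD libraries, 4 lay between 579 and 622 CPM, and TG_HFD 3 and 4 were again highest at 791 and 862 CPM. WT_HFD ranged from 538 to 584 CPM in 5 libraries, with WT_HFD 6 at 763 CPM. Brainstem has no WT_HFD library of that number. Replicates 3 and 4 of the other groups had 595 to 665 CPM in brainstem and 529 to 617 CPM in hippocampus, where those of TG_SD, at 613 and 617 CPM, were the highest of their group.

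**Figure D2:**
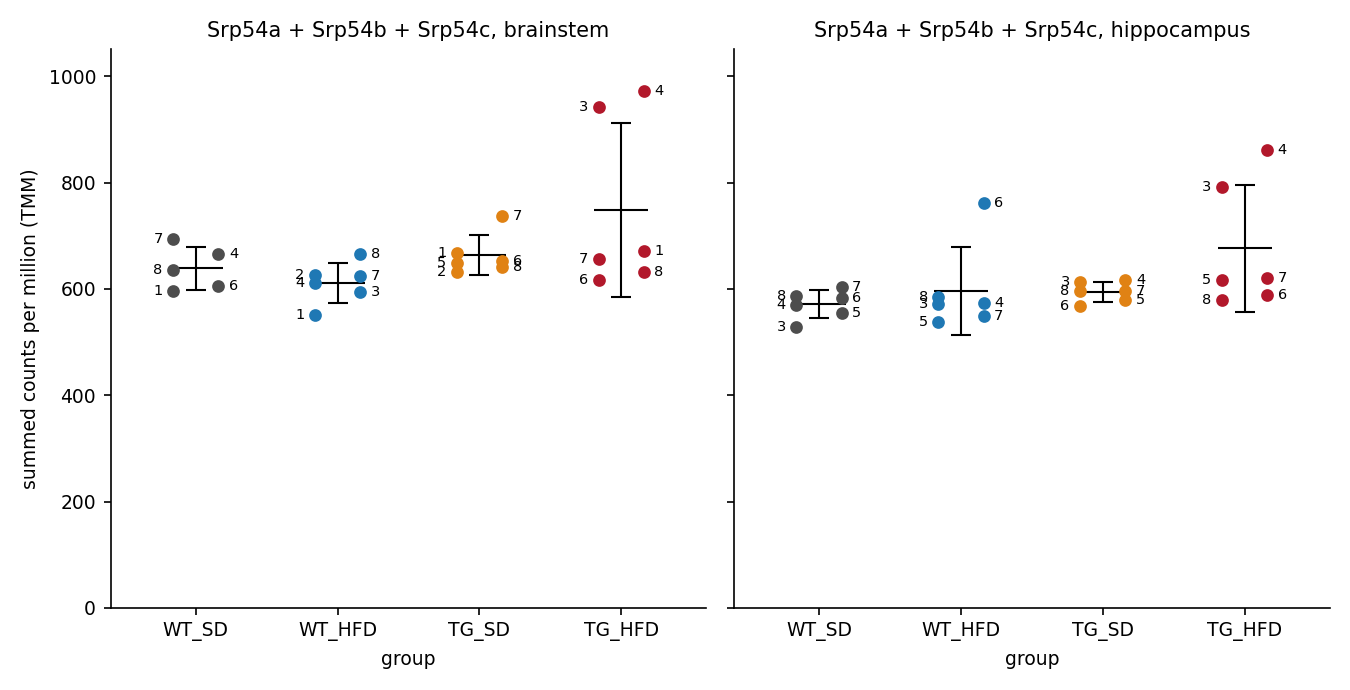
Summed CPM of Srp54a, Srp54b and Srp54c in each library (points, with replicate numbers) by group in brainstem and hippocampus, with the group mean and SD as bars. TG_HFD 3 and 4 sit at 943 and 973 CPM in brainstem and at 791 and 862 CPM in hippocampus, where WT_HFD 6 sits at 763 CPM.

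Each copy showed the same libraries at the top. Srp54a was at 333 and 342 CPM in brainstem TG_HFD 3 and 4, against 192 to 259 CPM elsewhere in brainstem. Srp54b was at 321 and 330 CPM there and Srp54c at 289 and 302 CPM. In hippocampus, TG_HFD 3, TG_HFD 4 and WT_HFD 6 had 276, 301 and 264 CPM of Srp54a, and 248, 270 and 239 CPM of Srp54c. The group mean of Srp54a was 262 ± 58.9 CPM in brainstem TG_HFD (SD, n = 6), against 222 ± 13.9 in WT_SD (n = 5), 213 ± 13.1 in WT_HFD and 231 ± 14.0 in TG_SD (n = 6 each).

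In bulk tissue, a change in the number of cells that make an RNA and a change in RNA per cell cannot be told apart. Marker lists of other cell types were summed in the same libraries. The summed level of the choroid plexus markers Ttr, Kl and Folr1 ran from 9.16 to 2935 CPM in brainstem, with 2403 CPM in TG_HFD 3 and 9.16 CPM, the lowest value, in TG_HFD 4. In hippocampus it ran from 35.4 to 302 CPM, with 49.3, 54.9 and 70.3 CPM in TG_HFD 3, TG_HFD 4 and WT_HFD 6. The 3 oligodendrocyte markers summed to 9588 CPM in brainstem TG_HFD 3, the lowest of 9588 to 16550 CPM, and to 13340 CPM in TG_HFD 4. The 5 brainstem neuron markers summed to 627 and 573 CPM there, within 368 to 627 CPM, and the endothelial markers Cldn5 and Pecam1 to 38.9 and 52.2 CPM, within 38.9 to 65.1 CPM. TG_HFD 3 was thus the highest brainstem library for the neuron markers and the lowest for the endothelial markers. The 3 astrocyte markers summed to 744 and 804 CPM in brainstem TG_HFD 3 and 4, within 655 to 1250 CPM. The 3 microglia markers summed to 73.7 and 91.0 CPM there, within 71.7 to 95.8 CPM. In hippocampus the 5 hippocampal neuron markers summed to 991 CPM in TG_HFD 3, 934 CPM in TG_HFD 4 and 1210 CPM in WT_HFD 6, within 921 to 1355 CPM, which put TG_HFD 3 and 4 near the low end. No marker gene listed in a region's table was at 0 in all its libraries, and their part in the Srp54 levels was not tested.

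Tmem267 varied over a wider relative range, in every group. In brainstem, WT_SD libraries had 14.5, 14.8, 17.5, 22.9 and 31.6 CPM. WT_HFD ranged from 9.16 to 30.4 CPM with a median of 23.6, TG_SD from 29.4 to 40.6 CPM with a median of 31.3, and TG_HFD from 17.4 to 43.5 CPM with a median of 24.8. The TG_SD values were thus close together and high, with only WT_SD 6 reaching into their range from WT_SD. The underlying counts were 110 to 652 reads.

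In hippocampus Tmem267 was higher. WT_SD ranged from 18.9 to 50.4 CPM with a median of 36.7, WT_HFD from 13.7 to 67.9 CPM with a median of 30.2, TG_SD from 41.1 to 63.7 CPM with a median of 57.6, and TG_HFD from 32.4 to 66.4 CPM with a median of 49.6. WT_HFD 4 was the lowest library in both regions, at 9.16 and 13.7 CPM. The ratio of the highest to the lowest library was 4.75 in brainstem and 4.97 in hippocampus, against 1.78 and 1.64 for Srp54a. The coefficient of variation of Tmem267 was 33.6% in brainstem, where 0.885% of the 13340 genes tested had a higher one, and 36.1% in hippocampus, where 0.407% did. For Srp54a it was 15.3% and 13.5%, against medians over all genes of 11.5% and 9.75%.

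**Figure D3:**
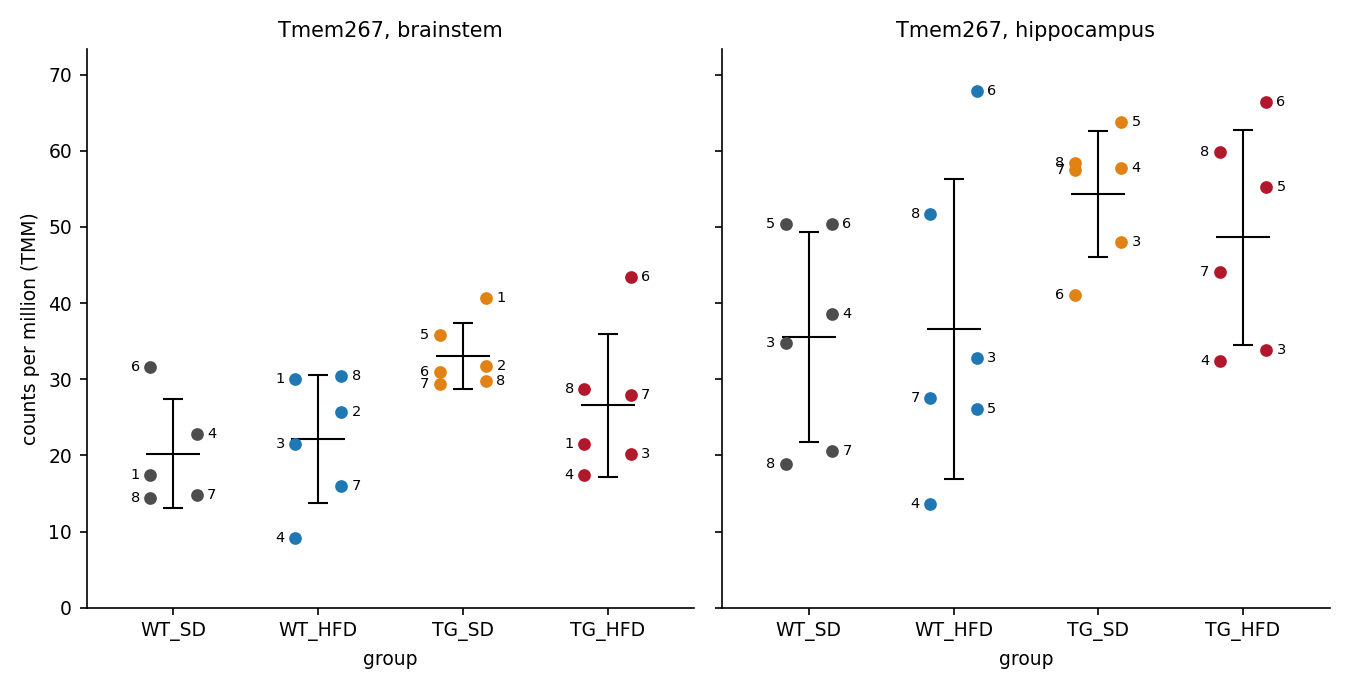
CPM of Tmem267 in each library (points, with replicate numbers) by group in brainstem and hippocampus, with the group mean and SD as bars. WT_HFD 4 is lowest in both regions, at 9.16 and 13.7 CPM, and the groups overlap.

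Libraries of the regions were then paired within a group by the number that ends their names, which gave 17 pairs, 5 in TG_HFD and 4 in each other group. The labels do not say whether an equal number marks the same mouse. In all 17 pairs Tmem267 was higher in hippocampus, with a median log2 difference of 0.74 and a range of 0.38 to 1.05, and Srp54a was lower in all 17, with a median of -0.16 and a range of -0.32 to -0.05. The labels describe the same preparation for all libraries and name no batch.

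Log2 CPM, centred on the mean of the paired libraries of each group, was then compared between the regions of a pair. For the sum of the Srp54 copies r (Pearson) was 0.934 over the 17 pairs and rho (Spearman) was 0.757. TG_HFD 3 deviated by 0.33 in brainstem and 0.22 in hippocampus and TG_HFD 4 by 0.38 and 0.34, while the deviations of the other TG_HFD pairs lay between -0.28 and -0.13 in both. Without these 2 pairs, which were the farthest from the brainstem median, r fell to 0.421, so the relation for Srp54 rested on them. For single copies r went from 0.922 to 0.281 for Srp54a, from 0.928 to 0.356 for Srp54b and from 0.945 to 0.602 for Srp54c. In WT_SD, WT_HFD and TG_SD the paired deviations of the summed copies were within -0.10 and 0.14 in brainstem.

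For Tmem267 the agreement ran through all groups but TG_SD. Pearson's r was 0.947, rho 0.931, and r was 0.914 without the 2 pairs farthest from the brainstem median, WT_HFD 4 and WT_SD 8. The order of the libraries was identical in both regions in 3 of the 4 groups. From low to high, it was WT_SD 8, 7, 4 and 6, WT_HFD 4, 7, 3 and 8, and TG_HFD 4, 3, 7, 8 and 6. In TG_SD the deviations were small in brainstem, from -0.09 to 0.19, and the orders differed. In 14 of 17 pairs Tmem267 was on the same side of its group mean in both regions, against 11 of 17 for the summed Srp54 copies. For the copies, TG_HFD 3 and 4 raised their group mean, which left the other TG_HFD pairs below it in both regions. This count is not given for all genes.

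Most genes did not agree to this degree. Over the 12619 genes tested in both regions, the median r was 0.20, with quartiles at -0.01 and 0.41 and a highest value of 0.954. A value at least as high as that of the member was found for 8 genes (0.0634%) for Srp54a, 7 for Srp54b, 4 for Srp54c and 2 for Tmem267. These counts include the member itself and any other member with a higher r. The members were chosen for this agreement, so a place near the top was set in advance. Without TG_HFD 3 and 4, over 15 pairs, 46.2% of genes had an r at least as high as Srp54a and 11.0% as Srp54c, while 4 genes, or 0.0317%, reached that of Tmem267, which was 0.941.

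**Figure D4:**
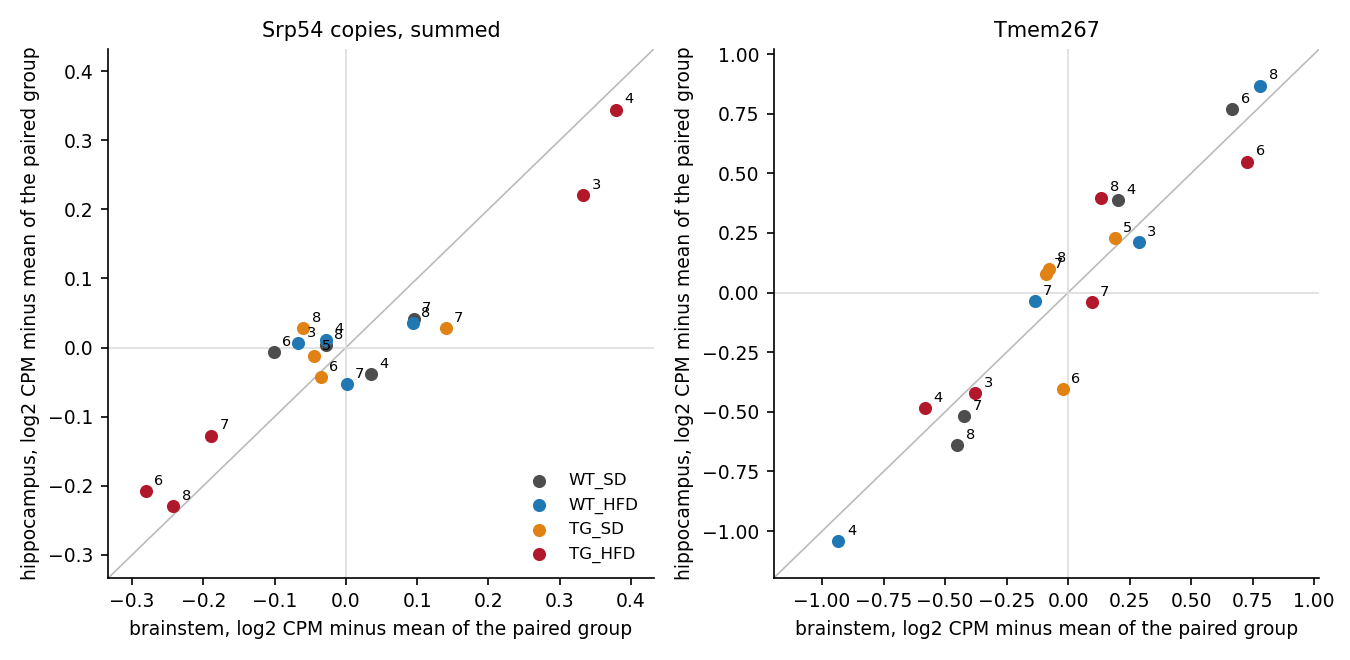
Deviation of log2 CPM from the mean of the paired libraries of the group in hippocampus (vertical) against brainstem (horizontal) for the summed Srp54 copies (left) and Tmem267 (right), with 1 numbered point per pair, group colours and the line of equal deviation in grey. For Srp54 the pairs TG_HFD 3 and 4 lie apart at the upper right, and for Tmem267 the points spread along the line from WT_HFD 4 at -0.93 and -1.04 to WT_HFD 8 at 0.78 and 0.87.

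The Srp54 copies and Tmem267 did not vary together. Over all 47 libraries, centred on group and region, r was 0.999 between Srp54a and Srp54b and 0.993 between Srp54a and Srp54c, but -0.23 between Srp54a and Tmem267. Reads common to the copies enter the values between copies. In TG_HFD, the libraries highest in Srp54 were the lowest in Tmem267 in both regions, at 20.1 and 17.4 CPM in brainstem, where TG_HFD 1 had 21.5 CPM, and 33.8 and 32.4 CPM in hippocampus. Hippocampus WT_HFD 6 was high in both, with 67.9 CPM of Tmem267.

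In the annotation of GRCm38, the copies lie in a row on chromosome 12 in the order Srp54a, Srp54b and Srp54c, with further repeated genes between them. Fam177a and Gm2436 follow Srp54a, and 1700047I17Rik2 and Gm2446 follow Srp54b. Fam177a and 1700047I17Rik2 had equal counts in 39 of 47 libraries and differed by at most 1 read in the others, and Gm2436 and Gm2446 were equal in 47 of 47. Their reads cannot be told apart either.

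The libraries that were high in Srp54 were also high in these neighbours. On the log2 scale against the WT_SD mean, Fam177a was at 0.66 and 0.71 in brainstem TG_HFD 3 and 4, against -0.11 to 0.12 in all other brainstem libraries. In hippocampus it was at 0.54, 0.67 and 0.63 in TG_HFD 3, TG_HFD 4 and WT_HFD 6, against -0.17 to 0.23 elsewhere. Ppp2r3c, a regulatory subunit of protein phosphatase 2A, lies beyond Srp54c. It was at 0.37 and 0.34 in brainstem, against -0.28 to 0.24 in the other libraries. In hippocampus it was at 0.38, 0.27 and 0.088, against -0.26 to 0.083. All 5 were thus above the other libraries, but WT_HFD 6 only barely. Of its windows of read length 32.9% also occurred in other genes, among them Fam177a and Gm2436. Gm2436 was above all other libraries in hippocampus TG_HFD 3 and 4 (0.35 and 0.36) but not in WT_HFD 6 (-0.04) nor in brainstem, where other libraries reached 0.35.

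Farther out this was not seen. The 5 nearest tested genes before Srp54a, from Sptssa to 2700097O09Rik, were above all other libraries in 0 of the 5. Among 3 genes beyond Ppp2r3c, 1110008L16Rik, the proteasome subunit Psma6 and Nfkbia, which encodes the NF-kappa-B inhibitor alpha, this held once, for Nfkbia in hippocampus TG_HFD 3 at 0.27.

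**Figure D5:**
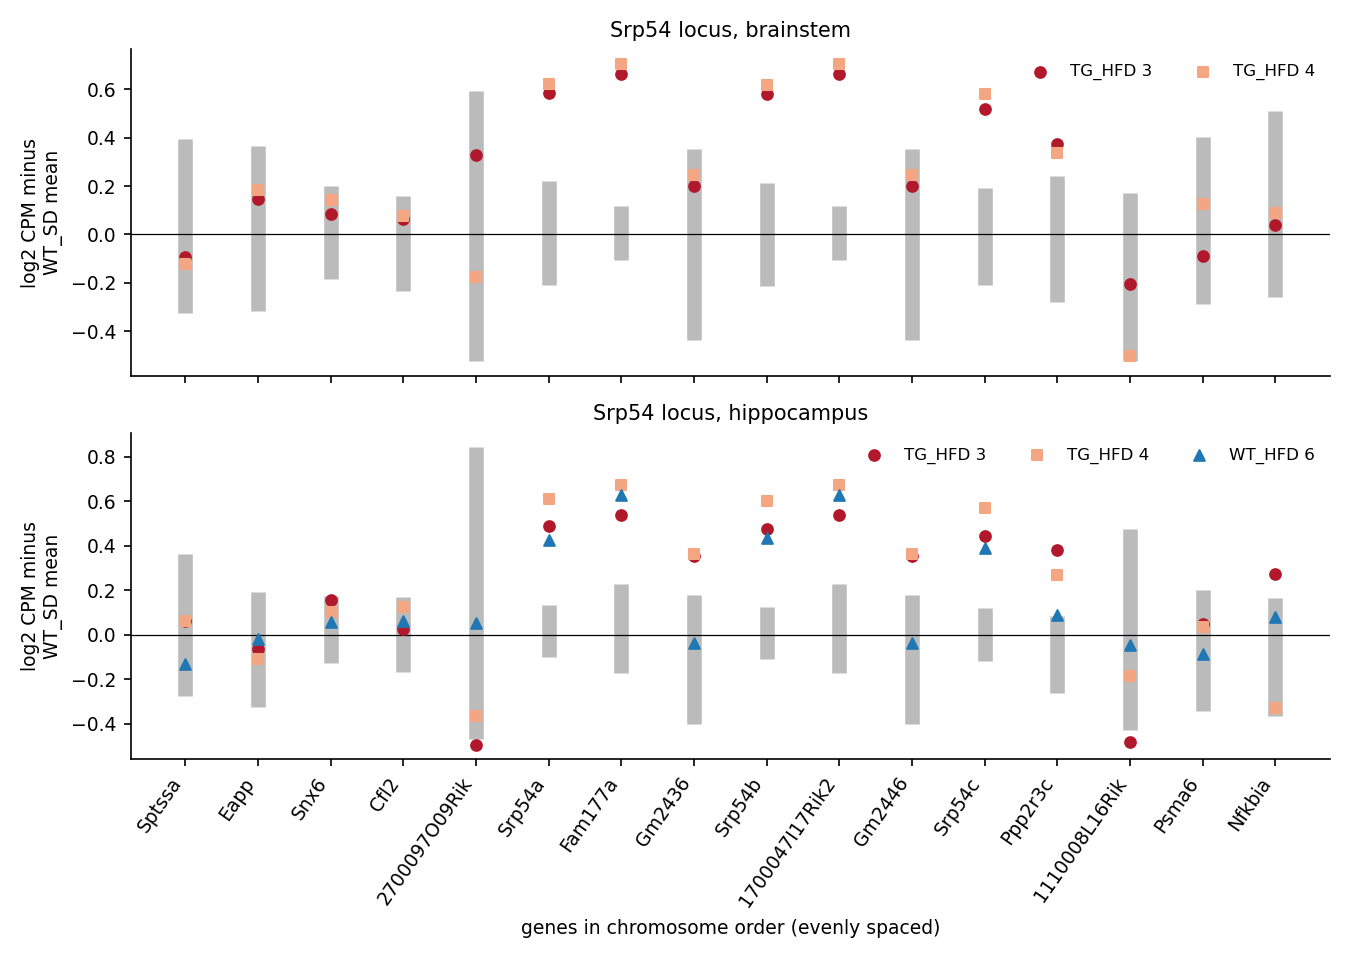
Log2 CPM minus the WT_SD mean of the region (vertical) for tested genes other than processed pseudogenes, in chromosome order around the Srp54 copies (horizontal, evenly spaced), with symbols for TG_HFD 3, TG_HFD 4 and, in hippocampus, WT_HFD 6, and grey bars for the range of all other libraries. The symbols lie above the bars at the copies, Fam177a, 1700047I17Rik2 and Ppp2r3c, and mostly within them at the outer genes. At Ppp2r3c the symbol of WT_HFD 6 is barely above the bar.

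Over the 47 libraries the genes most like Srp54a, apart from the other copies, were 1700047I17Rik2 and Fam177a with r = 0.903 each, Ppp2r3c with 0.739, Naa50, an N-terminal acetyltransferase, with 0.693, and Kbtbd2, a substrate adaptor of a ubiquitin ligase, with 0.690. The same 5 genes led for Srp54b and Srp54c. Without the 5 high libraries r was 0.37 for Fam177a, 0.16 for Ppp2r3c, 0.50 for Naa50 and 0.74 for Kbtbd2. For Tmem267 the most alike were Wipf1, which encodes a partner of the actin regulator WASP, with r = 0.694, Gm14393 with 0.602, Gm21887 with 0.596, Gm47283 with 0.585 and Gm14326 with 0.583. These lists changed with the settings: of the 5 genes of Tmem267, 0 remained among its first 5 without centring on the groups, 3 with Spearman's rho and 1 without the 5 high libraries, and of those of Srp54a 3, 3 and 0 remained. Tmem267 lies on chromosome 13, and r with its 5 nearest tested neighbours on either side ran from -0.12 for Nim1k to 0.34 for Zfp131. Hmgcs1, an enzyme of cholesterol synthesis and the first tested gene after Tmem267, had an r of 0.14. Genes not tested in both regions have no r here. Among them is Ccl28 on chromosome 13, looked at after its values were seen, with a mean of 32.4 reads in brainstem. On the log2 scale against the WT_SD mean, hippocampus WT_HFD 6 was at 1.30 for Ccl28 and 1.03 for Tmem267. Hippocampus TG_HFD 4 was at 0.92 for Ccl28 and -0.03 for Tmem267.

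Comparisons of the groups were fitted over all tested genes of a region with edgeR's quasi-likelihood test and surrogate variables, which stand for unlabelled variation between libraries. A gene was called at an adjusted p of at most 0.05 with a log2 fold change of at least 0.3 in size. Over 5 contrasts in each of 2 regions, 0 of the 40 tests of the 4 genes gave a call, and 8 had an unadjusted p of at most 0.05. With DESeq2 0 of the 40 were called and 1 had such a p. In the edgeR fit, 644 to 1400 of the 13340 genes in brainstem had such a p, depending on the contrast. In hippocampus 794 to 1505 of the 13272 genes did. The share of all genes called was 0.142% in brainstem and 0.098% in hippocampus for TG_SD/WT_SD, 0.0525% and 0.226% for TG_HFD/WT_HFD, 0% and 0% for WT_HFD/WT_SD, 0.0075% and 0% for TG_HFD/TG_SD, and 0.0075% and 0% for the interaction of genotype and diet. With shares this low, the absence of a call does not set the 4 genes apart.

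The Srp54 copies had log2 fold changes of -0.06 to 0.21 over the 30 tests, with adjusted p from 0.623 to 0.999. On HFD, Srp54a in TG against WT differed by a log2 value of 0.02 in brainstem (SE 0.07, edgeR adjusted p = 0.995) and by -0.04 (SE 0.09, adjusted p = 0.921) in hippocampus. This value depended on the surrogate variables. Without them Srp54a was at 0.30 (SE 0.09, edgeR adjusted p = 0.138) and 0.18 (SE 0.08, adjusted p = 0.196), with TG_HFD 3 and 4 in the mean. When these libraries were left out, with the surrogate variables, it was 0.02 and -0.12. The latter still had WT_HFD 6 in the WT mean, and without that library as well it was -0.001 (SE 0.04).

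The 6 Srp54 tests with an unadjusted p of at most 0.05 were the diet contrasts in hippocampus. Since the copies share reads, these are not 6 separate results. Srp54a in WT_HFD/WT_SD was at 0.21 (SE 0.08, edgeR adjusted p = 0.722) and in TG_HFD/TG_SD at 0.15 (SE 0.07, adjusted p = 0.65). Without WT_HFD 6 the former was 0.11, and without TG_HFD 3, TG_HFD 4 and WT_HFD 6 they were 0.05 and 0.02.

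Tmem267 came nearest to a call. In TG_SD/WT_SD its log2 difference was 0.75 in brainstem (SE 0.19, edgeR adjusted p = 0.0996) and 0.47 in hippocampus (SE 0.23, adjusted p = 0.540), and neither passed the threshold. Without brainstem WT_SD 4 the adjusted p was 0.0168, the only call for any of the 4 genes in any fit that was run, while the alternatives other than leaving out a library gave 0.0767 to 0.962. In TG_HFD/WT_HFD the values were 0.19 (SE 0.22, edgeR adjusted p = 0.971) and 0.29 (SE 0.29, adjusted p = 0.760). The interaction of Tmem267 was -0.56 in brainstem (SE 0.29, edgeR adjusted p = 0.993) and -0.18 in hippocampus (SE 0.34, adjusted p = 0.970).

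Other genes of the route were read from a list of 36 annotated genes. It covered the signal recognition particle, its receptor, the Sec61 translocon, the translocon-associated proteins (Ssr1 to Ssr4), the signal peptidase and the oligosaccharyltransferase. Besides the 3 copies, 32 of the listed genes were tested in each region, and 0 were called in any contrast. Their lowest adjusted p was 0.151 in brainstem and 0.542 in hippocampus. In TG_HFD/WT_HFD their median log2 fold change was 0.02 in brainstem, with 22 of 32 above 0, and -0.01 in hippocampus, with 14 of 32 above 0, beside medians over all genes of 0.01 and -0.01.

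The other subunits of the particle are Srp9 and Srp14, which slow elongation, Srp19, which helps the complex assemble, and Srp68 and Srp72, which bind its RNA. Their r with Srp54a over the 47 libraries was 0.12, -0.27, 0.14, -0.14 and 0.27, in that order. Without the 5 high libraries it was 0.11, -0.43, 0.18, 0.25 and 0.56, so that Srp72 and Srp14 were then farther from 0 and Srp68 changed sign. For the receptor subunits Srpr and Srprb r was -0.11 and -0.12, and -0.17 and -0.23 without these libraries. Over all 32 genes the median was 0.06, from -0.52 to 0.65, beside a median of 0.01 over 12615 other genes. The highest value belonged to Sec62, a translocon partner chosen here after its value was seen, with 0.647 and, without the 5 high libraries, 0.611.

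Agreement between paired regions was also lower for these genes. The median r of the 32 genes was 0.16, from -0.28 to 0.827, and the highest was that of Sec61g, the small subunit of the translocon, also chosen after its value was seen. Their coefficients of variation in brainstem were 4.28% to 20.3% with a median of 8.58%, and 3 of 32 exceeded that of Srp54a. In hippocampus they were 3.97% to 20.9% with a median of 6.93%, and 2 of 32 exceeded it.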

How the data were processed

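RNA was poly(A)-selected and read as single ends. The authors aligned reads with STAR 2.7.9a to the Ensembl v104 mouse genome with the human transgene and deposited raw read counts per gene and library. The counting tool is not given in the sources used here. The authors left out 1 WT_SD brainstem sample for RNA quality. Counts were normalized by TMM and tested with edgeR 4.0.16 in R 4.3.3, each region alone, on genes whose counts averaged 50 or more, with 4 surrogate variables per region from sva 3.50.0. P-values were adjusted by Benjamini-Hochberg over all tested genes. Log2 CPM used a prior count of 2. Total counts, given in the report, limit the precision of low genes such as Tmem267. The members, gene lists and tests were chosen with earlier results of these data known. Named were the 4 members, the genes between the Srp54 copies, the 5 tested genes on either side of each locus, and the 5 genes most correlated with each member. Of these, 1 is not reported here. Gene order, symbols and sequences came from GENCODE M21 (GRCm38), and since that is not the build of the counts no coordinates are given. The script was tested on simulated counts.

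Alternatives were DESeq2 1.42.0, RLE normalization, 0, 1 or 2 surrogate variables, other count filters, no fold threshold, the replicate number as a block, other scales and centring, and leaving out each library. Added after seeing the data were fits without the libraries highest in Srp54. Equally numbered libraries of different groups deviated together with a median r of 0.0392 in brainstem and 0.0651 in hippocampus, and not in all pairs, so numbers were not taken as pairing the groups.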

Additional observations from a re-analysis of the deposited data

Results flagged for a closer look

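Within groups, single libraries that stood apart by Dixon's test were looked for in each of the 4 genes, over 32 sets of libraries. In genes not chosen for such variation chance flags about 1 in 20 sets. These genes were chosen for it, so that rate does not apply and the values are a description. Brainstem TG_SD 7 was high in Srp54a at 258.6 CPM, where the other TG_SD libraries had at most 232.5 CPM, and in Srp54b at 248.4 CPM. Hippocampus WT_HFD 6 was high in Srp54a at 264.4 CPM, where the other WT_HFD libraries had at most 202.0 CPM, in Srp54b at 259.3 CPM and in Srp54c at 239.0 CPM. The copies share reads, so these are 2 libraries rather than 5 separate results. TG_HFD 3 and 4 were not found by this test in either region, since each has the other close by. No library was found for Tmem267.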

How the results depend on the processing

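The count of 0 calls in 40 tests was the same under every other setting, the replicate block included, with or without surrogate variables. It was 0 to 1 with a library left out. With the block Tmem267 in brainstem TG_SD/WT_SD was 0.59 without surrogate variables and 0.58 with them. Without the block it was 0.61 to 0.96 with a library left out. Deviations of equally numbered libraries of different groups had an r over 0.1 in 10 of 26 pairs in brainstem and 15 of 36 in hippocampus, with medians of 0.0392 and 0.0651 beside -0.026 and -0.0414 for other pairs. Since not every pair passed 0.1 and the labels tie the numbers to nothing, the block was kept as an alternative.

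The agreement between regions for the summed Srp54 copies was 0.919 on library totals, 0.757 as Spearman's rho, 0.952 without WT_SD, 0.948 without WT_HFD, 0.954 without TG_SD, 0.385 without TG_HFD, and 0.421 without TG_HFD 3 and 4, which are also the 2 farthest pairs. For Tmem267 it was 0.961 uncentred, 0.931 as rho, 0.935 without WT_SD, 0.912 without WT_HFD, 0.971 without TG_SD, 0.959 without TG_HFD and 0.914 without the 2 farthest pairs.

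Srp54a in TG_HFD/WT_HFD changed sign in some fits. Its log2 difference in brainstem was -0.020 with filterByExpr and -0.049 with a total count of at least 50, and ran from -0.092 to 0.057 with a library left out. In hippocampus it was 0.184 with 0 or 1 surrogate variables, 0.184 with 2, 0.180 with the replicate block without surrogate variables, and -0.102 to 0.090 with a library left out. The cause was not tested.

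Reads shared by the copies limit every statement on a single copy and on the height of their sum. Counts of 110 to 652 reads limit the precision of Tmem267 in brainstem.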
